A study of Mus musculus with 18 samples.

Results

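Naive CD4+ T cells labelled Creld1 conditional knockout (cKO) were compared with control cells immediately after sorting, before any culture. The comparison held 6 of the 18 RNA sequencing libraries of the study, 3 labelled cKO and 3 labelled control, chosen by their labels as naive cells that were not cultured. The cKO mice were C57BL/6J mice with Cre recombinase driven from the CD4 gene's control regions, which are on from the thymus onwards in T cells. Control mice were of the same background, and the labels give neither their alleles nor whether they carried Cre. All libraries were from spleen cells sorted as CD3+ CD4+ CD62L+ and negative for CD25 and CD44, a gate that should deplete regulatory and memory T cells. The other 12 libraries were cKO and control cells kept for 8 h without or with antibodies to CD3 and CD28 at 1 µg/ml, and are used here only to set the fresh values beside them. The labels give 1 mouse number per group and do not say whether the 3 libraries of a group came from separate mice, so p-values measure the spread between libraries, which may be technical.

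Creld1 encodes a membrane-anchored protein with cysteine-rich EGF-like domains of the endoplasmic reticulum and cell surface, known for its role in heart valve and septum development and in calcineurin and NFAT signalling. NFAT is the transcription factor through which calcium entry after T cell receptor engagement reaches the nucleus. Naive CD4+ T cells are resting cells that recirculate through lymphoid organs until they meet antigen, and they depend on IL-7 and tonic receptor signals for survival.

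The deposited values were normalized log2 values, 1 per gene and library. Of 15137 genes in the table, 10877 (71.9%) were tested, those at 10 or above on the linear scale in 3 of the 18 libraries or more. Differences are cKO minus control on the log2 scale, with the standard error of a limma model of all 6 groups. A gene was called at a Benjamini-Hochberg adjusted p below 0.05 over all tested genes.

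The fresh libraries did not divide first by genotype. The first principal component held 77.1% of their variance, with cKO libraries 1, 2 and 3 at -20.0, -34.5 and 31.2 and control libraries 1, 2 and 3 at -13.5, 18.8 and 17.99. cKO library 3 thus stood with control libraries 2 and 3, and control library 1 with cKO libraries 1 and 2. The same division was seen in the GC slope, the regression of each library's deviation on the GC content of the transcript per SD of GC content, at -0.19, -0.31 and 0.16 in cKO cells and -0.16, 0.08 and 0.06 in control cells (two-sided exact permutation p = 0.6). Mitochondrially encoded genes took 5.05%, 5.74% and 3.18% of the linear sum in cKO cells and 5.03%, 3.63% and 3.66% in control cells (exact permutation p = 0.6). The median SD of a gene between libraries was 0.24 in cKO cells and 0.16 in control cells. The genotypes did not overlap on the third component, which held 6.13% of the variance (exact permutation p = 0.1, the smallest that 3 against 3 allows).

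**Figure D1:**
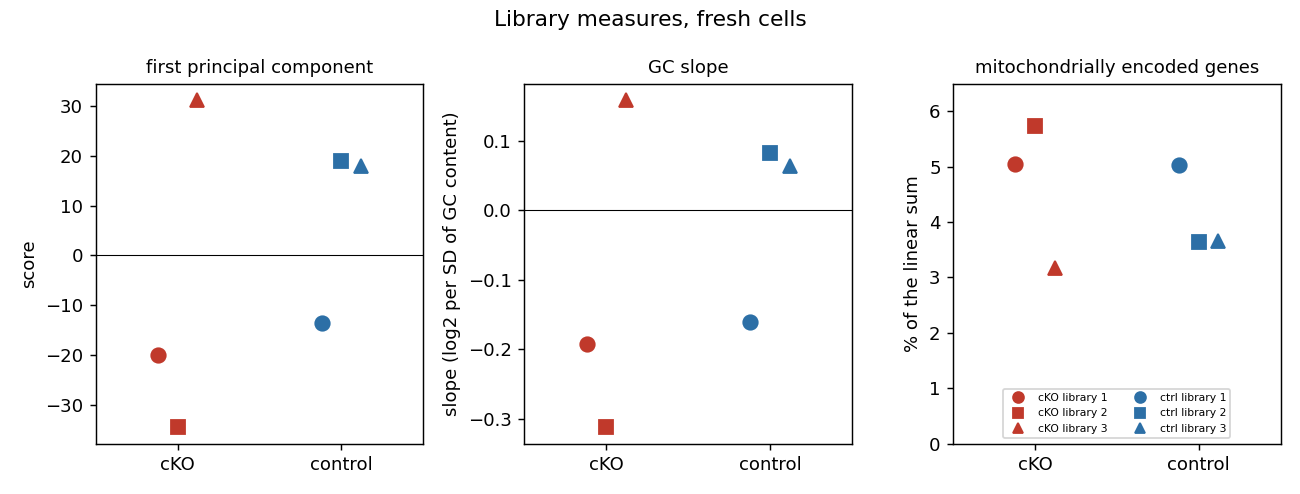
First principal component score, GC slope and share of mitochondrially encoded genes in the 3 cKO and 3 control libraries of fresh cells, 1 point per library. cKO library 3 lies beside control libraries 2 and 3, and control library 1 beside cKO libraries 1 and 2, in all 3 panels.

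The cells carried the markers of their label. All 11 markers of naive CD4+ T cells with a value were tested, and their summed linear values were 62410 to 65880 in cKO cells and 61230 to 62080 in control cells. Markers of B cells summed to 71.9 to 109 in cKO cells and 83.7 to 103 in control cells. Markers of CD8 T and NK cells summed to 443.5 to 495.1 in cKO cells and 435.5 to 468.9 in control cells, and those of myeloid cells to 1188 to 1261 in cKO cells and 1136 to 1230 in control cells. Markers of memory and effector T cells, which the CD44 gate should deplete, summed to 4849 to 5355 in cKO cells and 4585 to 4797 in control cells. Every cKO library was thus above every control library, as also for the naive list. The same held for the linear sum over all genes, at 7321810 to 7419370 in cKO and 7192710 to 7286170 in control cells. Of the 17 tested memory and effector markers, 10 were above 0, with a median of 0.04. Ahnak was the member with separated libraries, at log2 10.10, 10.16 and 10.20 in cKO and 9.999, 9.58 and 9.67 in control cells. Its part in the sum was not tested. None of these lists held a called gene. Their part in the differences below was not tested. In bulk RNA, fewer cells of a type and less RNA per cell cannot be told apart.

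Creld1 itself (chromosome 6, GRCm38, chr6:113483297-113493343, plus strand) was at log2 4.19, 3.70 and 4.40 in cKO cells and 4.33, 4.85 and 4.57 in control cells. The groups overlapped, since cKO library 3 was above control library 1. The mean was 4.10 ± 0.36 in cKO cells and 4.58 ± 0.26 in control cells (SD, n = 3 each), a difference of -0.49 ± 0.23 (SE, limma adjusted p = 0.790, two-sided exact permutation p = 0.2). The labels do not state which exons are deleted, so transcript left in the cKO libraries cannot be assigned to the allele or to undeleted cells. The cKO minus control difference was -0.999 in unstimulated culture (limma adjusted p = 0.103) and -0.36 in stimulated culture (limma adjusted p = 0.974). In unstimulated culture 33.2% of all tested genes had an unadjusted limma p below 0.05, and the GC slope did not overlap between genotypes. The Creld1 transcript has 58.2% GC, and the part of GC content in that difference was not tested. Its relative Creld2, a soluble chaperone-like protein of the endoplasmic reticulum, differed by -0.13 and was not called. Of 22 tested genes within 1 Mb of Creld1, 0 were called and their median difference was -0.02. The closest tested genes were Rpusd3 (0.16) and Jagn1 (-0.13) on the lower-coordinate side and Emc3 (0.04) and Fancd2 (0.41) on the other. Fancd2, of the Fanconi anaemia DNA repair pathway, was the gene of this window whose libraries did not overlap, but it was not called either.

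Sall1 was called, 1 gene of 10877 (0.00919%), and no gene was called lower. Sall1 encodes a zinc finger transcription factor needed for kidney development and for the identity of microglia, and recruits the nucleosome remodelling and deacetylase (NuRD) complex. It was at log2 4.83, 5.35 and 5.53 in cKO cells and 3.43, 3.00 and 2.93 in control cells. All 3 cKO libraries were more than a log2 unit above all 3 control libraries, cKO library 3 included. The mean was 5.23 ± 0.36 in cKO cells and 3.12 ± 0.27 in control cells (SD, n = 3 each), and Sall1 rose by 2.11 ± 0.22 (limma adjusted p = 5.03e-04), or 4.32-fold. The level was low in both groups, near 37.6 in cKO cells and 8.7 in control cells on the linear scale. The control mean was thus below the linear minimum of 10 used to choose genes for testing. Sall1 passed that filter through its cKO libraries, and the fold divides by a level under the minimum, so its size is uncertain. With only the 6 fresh libraries in the fit the difference was the same and the adjusted p was 0.398.

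The gene lies on the minus strand of chromosome 8 at chr8:89027235-89044162. Its promoter is printed as that of the called gene, from 250 bases before to 50 bases after the most upstream start that RefSeq annotates (GRCm38.p6, chr8:89044113-89044412, minus strand), with the bases after the start in capitals.
Sall1: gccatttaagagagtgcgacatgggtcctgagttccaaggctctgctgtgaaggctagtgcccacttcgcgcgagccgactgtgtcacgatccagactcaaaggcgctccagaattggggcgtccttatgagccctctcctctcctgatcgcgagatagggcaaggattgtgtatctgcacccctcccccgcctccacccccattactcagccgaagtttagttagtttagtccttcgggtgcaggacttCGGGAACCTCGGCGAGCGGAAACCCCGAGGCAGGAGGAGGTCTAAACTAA
This stretch had 57.3% GC and 18 CpG dinucleotides, a number that 29.7% of all RefSeq promoters of this length reach.

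In culture the cKO cells also had more Sall1. Unstimulated cells were at 4.02, 3.86 and 4.69 in cKO and 3.12, 2.88 and 3.16 in control, a difference of 1.14 (limma adjusted p = 0.103). Stimulated cells were at 3.76, 3.87 and 4.06 in cKO and 3.13, 2.88 and 3.07 in control, a difference of 0.87. cKO and control libraries did not overlap in either culture, though Sall1 was not called there. The genotype difference in fresh cells exceeded that in unstimulated culture by 0.97 ± 0.31 (limma adjusted p = 0.843) and that in stimulated culture by 1.24 ± 0.31 (limma adjusted p = 0.666), so a difference between conditions was not shown. Sall2, the other member of the family with a tested value, was at 6.53, 6.25 and 6.70 in cKO cells and 6.40, 6.68 and 6.69 in control cells, and these overlapped. Of the 7 tested genes within 1 Mb of Sall1, 0 were called, from Snx20 (-0.20) to Cyld (0.12). The 13 tested genes of NuRD and related corepressors had 0 called and a median difference of 0.0048.

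**Figure D2:**
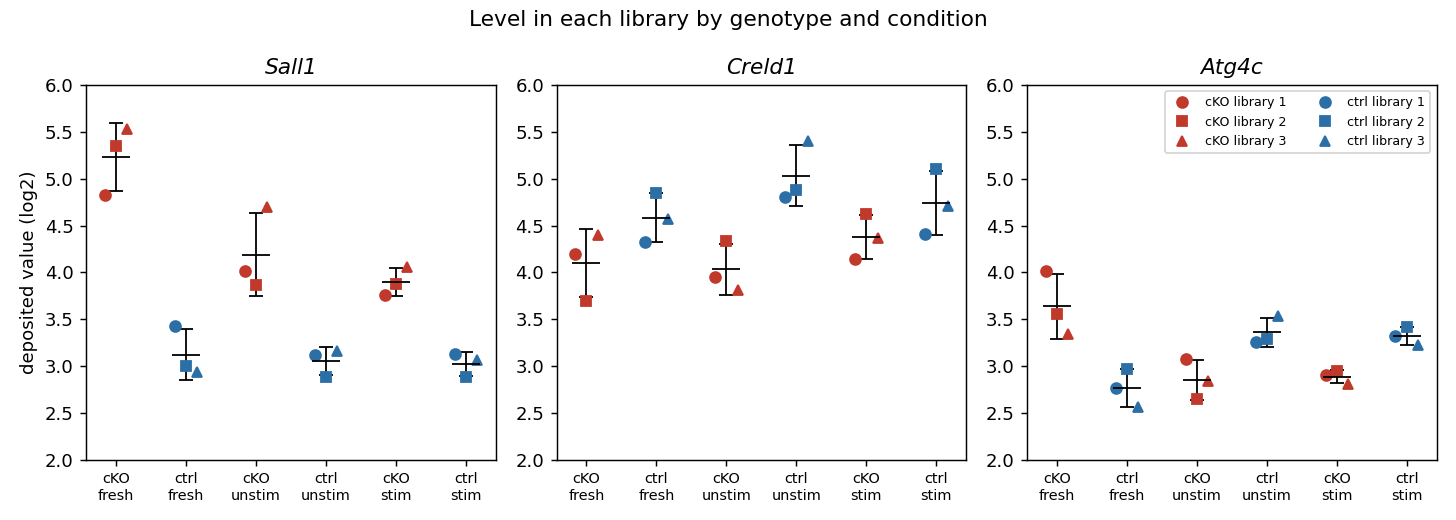
Deposited log2 values of Sall1, Creld1 and Atg4c in each library by genotype and condition, with the mean (bar) and SD (whiskers) of 3 libraries. Sall1 is higher in cKO than in control libraries in all 3 conditions, Creld1 overlaps in fresh cells, and Atg4c is higher in cKO cells when fresh and lower in both cultures.

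Beyond Sall1, no difference passed the adjusted threshold. At an unadjusted p below 0.05 there were 429 genes (3.94%), 233 higher and 196 lower. Every cKO library lay above every control library for 267 genes (2.45%) and below for 202 genes (1.86%). Among these the median size of the difference was 0.22 for the higher and 0.23 for the lower genes, against 0.12 over all tested genes. A difference of at least 1 was had by 1 of the 469, Sall1. Transcripts of the higher genes had a median GC content of 46.9% and those of the lower genes 50.7%, against 49.2% over all tested genes.

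**Figure D3:**
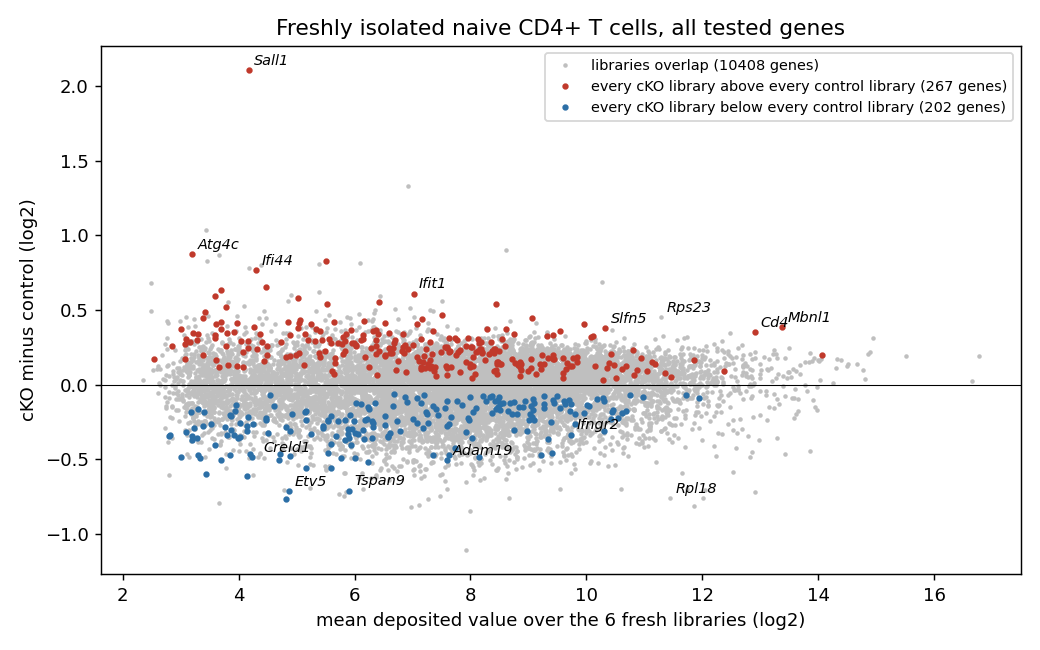
Difference between cKO and control (log2) against the mean level of the 6 fresh libraries for all 10877 tested genes. Red and blue points are the 267 and 202 genes whose cKO libraries all lie above or below the control libraries, and Sall1 stands apart at 2.11.

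The culture libraries compared the same genotypes under other conditions, with their own controls. No gene was called there by limma, with 3606 (33.2%) and 160 (1.47%) at an unadjusted p below 0.05 in unstimulated and stimulated culture. Nor did any genotype difference between fresh and cultured cells pass (0 of 10877), with 545 (5.01%) at an unadjusted p below 0.05 against unstimulated and 414 (3.81%) against stimulated culture. cKO libraries lay above all controls for 23.5% and below for 28.6% of genes in unstimulated culture, and for 3.05% and 3.14% in stimulated culture. Libraries did not overlap in the same direction in fresh, unstimulated and stimulated cells for 5 genes that were higher (0.0460%) and 1 that was lower (0.00919%). Whether these counts exceed what the shares in the single conditions would give was not tested. The higher genes were Sall1, Cd4, Ikzf2, Mbnl1 and Sqle, and the lower gene was Med12l, named after its values were seen. Over all 267 higher genes, 64.8% were also above 0 in unstimulated and 51.3% in stimulated culture, against 49.2% and 53.5% of all tested genes, and 56 genes in unstimulated and 15 in stimulated culture (5.62%) were separated in the same direction. Of the 202 lower genes, 63.4% were below 0 in unstimulated and 48.5% in stimulated culture, against 50.8% and 46.5% of all tested genes, and 25 genes (12.4%) in unstimulated and 8 in stimulated culture (3.96%) were separated in the same direction. In unstimulated culture the separated shares were thus below those of all tested genes, in which 23.5% lay above and 28.6% below. In unstimulated culture the GC slope ran from -0.19 to -0.07 in cKO and from 0.06 to 0.24 in control libraries, and its part in the unstimulated shares was not tested.

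Cd4, the coreceptor by which the cells were sorted, was at log2 12.98, 12.82 and 13.44 in fresh cKO cells and 12.70, 12.81 and 12.68 in fresh control cells, a difference of 0.35 ± 0.12 (limma adjusted p = 0.790). cKO library 3 was the highest and cKO library 2 only just exceeded the highest control. Unstimulated cells were at 12.78, 12.80 and 12.93 in cKO and 12.45, 12.62 and 12.60 in control. Stimulated cells were at 12.69, 12.70 and 12.84 in cKO and 12.54, 12.54 and 12.46 in control. Cd4 lies at chr6:124864692-124888221 on the chromosome of Creld1, and 36 tested genes within 1 Mb of it had 0 called and a median difference of -0.15.

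Ikzf2, which encodes the transcription factor Helios of regulatory and recently formed T cells, was at 7.54, 7.11 and 7.20 in fresh cKO cells and 6.90, 6.80 and 6.93 in fresh control cells, a difference of 0.41. It differed by 0.55 in unstimulated and 0.23 in stimulated culture. Regulatory T cell markers went both ways in fresh cells. Of 12 tested, Ikzf2 included, 4 were above 0 and 8 below, with a median of -0.06, and 0.06 with GC slope added to the model as a covariate. Ikzf2, Il2ra and Nrp1 were higher and Ctla4 lower in every cKO library. The summed level of that list was 1407 to 2074 in cKO cells and 1649 to 2050 in control cells. Foxp3 transcript was still present after the gate, at 5.998, 5.78 and 6.39 in cKO cells and 5.89, 6.19 and 5.97 in control cells. Mbnl1, a regulator of alternative splicing, was at 13.52, 13.74 and 13.46 in fresh cKO cells and 13.35, 13.12 and 13.09 in fresh control cells, with differences of 0.39 fresh, 0.47 unstimulated and 0.25 stimulated. Sqle, the squalene epoxidase of cholesterol synthesis, was at 7.65, 7.77 and 7.94 in fresh cKO cells and 7.54, 7.47 and 7.43 in fresh control cells, with differences of 0.31 fresh, 0.18 unstimulated and 0.13 stimulated. None of the 3 was called in any condition.

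Genes were also named by the smallest p among separated genes that averaged 100 or above (linear) in either genotype. The 10 higher genes differed by 0.28 to 0.61 and the 10 lower genes by -0.51 to -0.30, all with a limma adjusted p of 0.790. The smallest p of the higher genes was that of Slfn5 (2.59e-04), a Schlafen family gene induced by type I interferon, at 10.67, 10.50 and 10.38 in cKO cells and 10.26, 10.11 and 10.04 in control cells. The others were Rnf144a and Rnf13, which encode RING-type ubiquitin ligases, Sem1 of the proteasome regulatory particle, Tmem181a, the interferon-induced Ifit1, the giant scaffold gene Ahnak, Mbnl1, and Sqle and Cyp51 of cholesterol synthesis. Rnf144a had the most uneven cKO values, at 9.10, 8.45 and 8.58, with 8.21, 7.99 and 8.29 in control cells.

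The smallest p of the lower genes was that of Ifngr2 (3.90e-04), the signalling chain of the interferon gamma receptor, at 9.58, 9.52 and 9.61 in cKO cells and 9.88, 9.89 and 9.96 in control cells. Both groups were tight, with SDs of 0.05 in cKO and 0.04 in control cells, and the difference was -0.34 ± 0.08. In the cultures Ifngr2 differed by -0.07 and -0.06. Rabl6, a RAB-like GTPase gene, was as tight at 9.13, 9.13 and 9.18 in cKO cells and 9.48, 9.51 and 9.54 in control cells. The others were Pcnx, Fau, which encodes a fusion of a ubiquitin-like protein with ribosomal protein S30, the histone H3.3 chaperone gene Hira, the Polycomb-related L3mbtl2, the mitochondrial disaggregase gene Clpb, Csnk2b of casein kinase 2, the unconventional myosin gene Myo10 and the metalloprotease gene Adam19. Adam19 was at 7.35, 7.35 and 7.33 in cKO cells and 7.67, 7.89 and 7.996 in control cells. Of the 10 lower genes 9 were below 0 in unstimulated and 6 in stimulated culture, and of the 10 higher genes 8 were above 0 in unstimulated and 7 in stimulated culture.

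**Figure D4:**
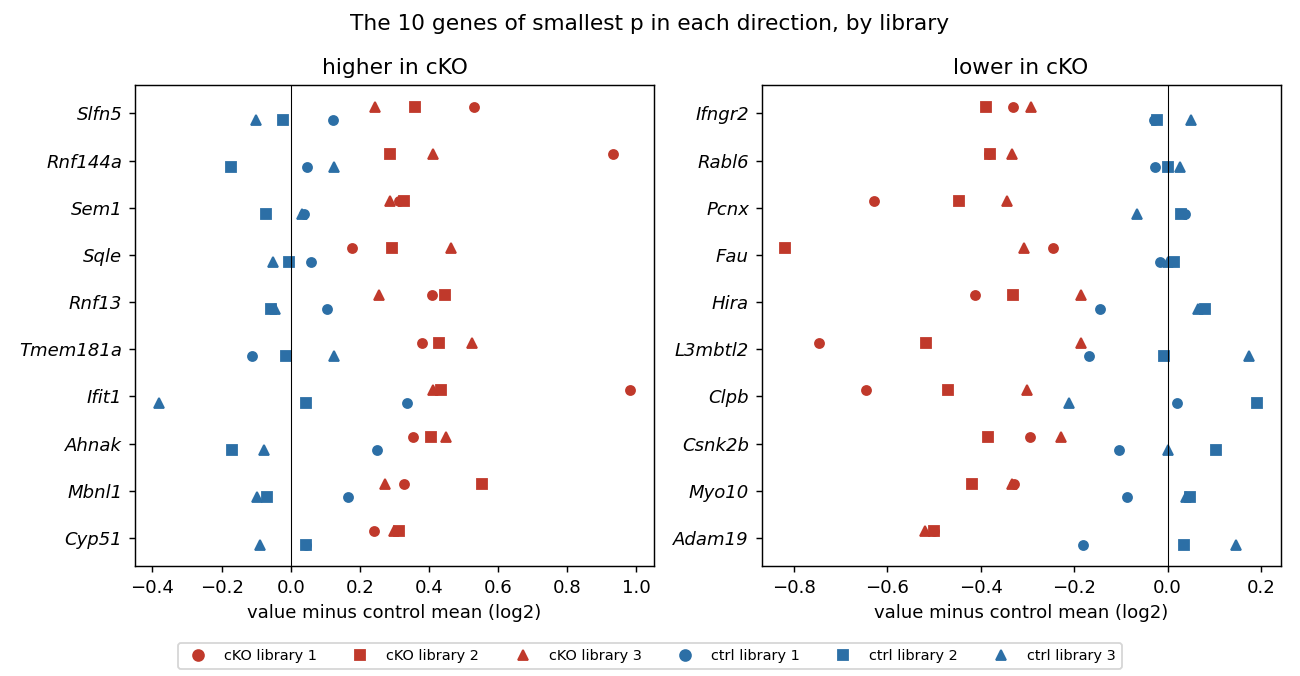
Deviation of each fresh library from the control mean (log2) for the 10 genes of smallest p in each direction, cKO points above control points in each row. Every cKO point lies beyond every control point of its gene, which the choice of genes required, and the distance between group means ranges from 0.28 for Cyp51 to 0.61 for Ifit1 on the left.

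Among genes with separated libraries, several of the widest differences after Sall1 belonged to genes at low levels. Over all tested genes 4 differed by at least 1, and those other than Sall1 had overlapping libraries (Gm9493 at 1.33, Gm43302 at 1.03 and Gm20390 at -1.11, named after their values were seen). Atg4c, a cysteine protease gene of autophagy, was at 4.02, 3.56 and 3.34 in cKO cells and 2.76, 2.97 and 2.56 in control cells, a difference of 0.88 ± 0.17 (limma adjusted p = 0.483). Glis3 (0.65), a zinc finger factor gene, and Esr1 (0.58), the oestrogen receptor alpha gene, were higher without being called. Etv5, an ETS factor gene, was at 4.48, 4.55 and 4.51 in cKO cells and 5.11, 4.97 and 5.60 in control cells. Tspan9, a tetraspanin gene, was at 5.66, 5.36 and 5.60 in cKO cells and 6.14, 6.48 and 6.14 in control cells. Ftl1-ps1 (-0.77), which resembles the ferritin light chain gene and may share reads with it, Ehd4 (-0.56), the clock gene Per2 (-0.56) and the receptor kinase gene Tyro3 (-0.52) were also lower without being called.

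Interferon-stimulated genes were mostly higher in cKO cells by small amounts. Of 62 tested, 0 were called, 44 were above 0, and the median difference was 0.12, against 0.00195 over all tested genes. Of all 10877 tested genes, 5480 were above 0. Libraries were separated for 6 higher and 1 lower member, beside 2.45% and 1.86% of all tested genes. Median deviations of the list were 0.09, -0.0032 and 0.01 in cKO and -0.04, -0.12 and -0.0016 in control libraries, so the genotypes overlapped. Ifit1, an RNA-binding antiviral effector, was at 7.70, 7.15 and 7.13 in cKO cells and 7.05, 6.76 and 6.33 in control cells. Ifi44 was at 5.09, 4.59 and 4.37 in cKO cells and 4.19, 3.66 and 3.89 in control cells, a difference of 0.77 ± 0.20. Both were separated, with cKO library 1 the highest and control library 1 the highest of its group. The DNA-sensor-related Ifi209 (0.33) overlapped. Isg15, a ubiquitin-like modifier named after its values were seen, went the other way at -0.46. All 7 tested Schlafen genes were above 0, from Slfn2 (0.05) to Slfn5 (0.38), with a median of 0.18, and Slfn1 was the other one with separated libraries (0.18). Median deviations of the Schlafen list were 0.17, 0.17 and -0.09 in cKO and -0.01, -0.24 and -0.09 in control libraries, so the genotypes overlapped. Schlafen genes lie in a cluster of similar copies, so reads may have been divided among them. In unstimulated culture the interferon list had a median of 0.07 and in stimulated culture -0.03. The Schlafen list had a median of 0.21 with 6 of 7 genes above 0 in unstimulated culture. Its median was -0.08 with 1 of 7 above 0 in stimulated culture.

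Promoters of these genes often carry the interferon-stimulated response element bound by ISGF3. The letters GAAANNGAAA on either strand, read as TTTCNNTTTC on the other, were found within 250 bases before to 50 bases after a RefSeq start in 53.2% of the 47 interferon list genes with a promoter in the table and in 3.99% of all 27025 genes. The promoters of Slfn5 (GRCm38.p6, chr11:82951852-82952151, plus strand) and Ifit1 (chr19:34640639-34640938, plus strand), the list members of highest rank by p with a match and a mean of at least 100, are printed with the matches in capitals.
Slfn5: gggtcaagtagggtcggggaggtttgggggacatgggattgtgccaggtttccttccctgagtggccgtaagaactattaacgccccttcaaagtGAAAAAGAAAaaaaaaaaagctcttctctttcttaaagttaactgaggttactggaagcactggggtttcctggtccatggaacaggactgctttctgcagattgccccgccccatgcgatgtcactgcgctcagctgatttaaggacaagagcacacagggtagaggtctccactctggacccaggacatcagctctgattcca
Ifit1: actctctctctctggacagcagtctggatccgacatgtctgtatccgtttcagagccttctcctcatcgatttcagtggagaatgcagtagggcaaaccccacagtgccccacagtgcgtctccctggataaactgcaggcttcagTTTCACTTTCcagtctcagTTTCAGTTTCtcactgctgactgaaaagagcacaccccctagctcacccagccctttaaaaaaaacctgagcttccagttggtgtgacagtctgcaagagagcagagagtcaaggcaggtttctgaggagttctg
Slfn5 has 1 match and Ifit1 has 2. The 25 list genes with a match had a median difference of 0.15 and the 22 without a match 0.09.

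Of 14 tested genes of interferon receptors and JAK-STAT signalling 9 were above 0 and 5 below, with a median of 0.04, 0 called, and Ifngr2 the member with separated libraries. Without cKO library 3 that median was -0.0061. Of 24 tested cytokine receptor genes 15 were below 0, with a median of -0.08, 0 called, and 3 lower and 1 higher with separated libraries. Over all tested genes 1.86% were separated lower and 2.45% higher. Beside Ifngr2, Tgfbr3, the co-receptor betaglycan, was at 9.79, 9.62 and 9.68 in cKO cells and 9.88, 9.90 and 9.90 in control cells. Il4ra differed by -0.52 with overlapping libraries, at 10.81, 10.50 and 11.49 in cKO cells and 11.13, 11.59 and 11.64 in control cells.

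Of 27 tested cholesterol synthesis genes, 15 were above 0 with a median of 0.02 and 0 called. The 3 separated members, Sqle and Cyp51 among them, were all higher. Over all tested genes 2.45% were separated higher and 1.86% lower. Cyp51, the lanosterol demethylase, was at 8.45, 8.53 and 8.51 in cKO cells and 8.26, 8.26 and 8.12 in control cells. Insig1 (0.19), a sterol-sensing regulator, and Idi1 (0.22), an isomerase, overlapped.

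Cytosolic heat shock genes had a median of 0.18 over 24 tested, the same as the Schlafen genes, with 19 above 0 and 0 called. The list was led by cKO library 2, and the genotypes overlapped. Median deviations from the mean of the fresh libraries were 0.005, 0.34 and -0.05 in cKO and 0.03, -0.15 and -0.15 in control libraries. Chordc1, an HSP90 co-chaperone, was at 10.13, 10.58 and 10.12 in cKO cells and 10.11, 9.88 and 9.87 in control cells, with separated libraries and a difference of 0.33. Dnaja1 (0.32) and Ptges3 (0.33) were highest in cKO library 2 and overlapped with control library 1. Dnajb1 was at 9.75, 9.79 and 10.04 in cKO cells and 9.69, 9.71 and 9.65 in control cells. Genes of tissue dissociation stress, which share Hspa1a and Hspa1b with this list, summed to 20400 to 31150 in cKO cells and 21440 to 25540 in control cells, and their part was not tested.

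Genes of T cell receptor signalling and of the pathways linked to Creld1 had no called member with all 6 libraries. The 38 tested genes of calcium entry, calcineurin and NFAT had 0 called, 18 above 0 and a median of -0.0067. Stim2 (0.21), the calcium sensor of the endoplasmic reticulum, Gsk3b (0.24), an NFAT export kinase, Itpr2 (-0.20) and Nfatc3 (0.18) had the smallest p, with overlapping libraries. Without cKO library 3, 4 of the 38 were called higher and 6 lower, with a median of -0.09. In that fit 4.15% of all tested genes were called higher and 6.82% lower. The 34 tested genes of the Wnt and beta-catenin pathway had 0 called and a median of -0.02, with Wls (0.30), the carrier of secreted Wnt proteins, the member with separated libraries. Receptor-proximal genes numbered 37 tested with 0 called and a median of -0.07, with Cd4 separated and Cd247 (-0.22), Csk (-0.40) and Plcg1 (-0.19) overlapping. Without cKO library 3, 1 of the 37 was called higher and 9 lower, beside the same 4.15% and 6.82% of all tested genes. Early genes induced by the receptor had 0 of 33 called and a median of -0.06, with Crtam (-0.46) and Fosl2 (-0.31) lower and Il2ra (0.36) higher in every cKO library. Genes of the naive and quiescent state had 0 of 32 called and a median of -0.04, led by Btg1 (-0.19), Ccr7 (-0.29), Lef1 (-0.17) and Txnip (-0.15). Libraries were separated for 1 higher and 0 lower members of that list, beside 2.45% and 1.86% of all tested genes. These medians also depended on the fit. With GC slope added to the model as a covariate, the early list was at 0.11 and the quiescence list at 0.01. The Wnt list was then at 0.05, the calcium list at 0.02 and the receptor-proximal list at -0.06.

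The medians of metabolic, translation and splicing lists depended on the fit as well. All 13 mitochondrially encoded genes were above 0 with a median of 0.17 in the 6 libraries, 0.42 without cKO library 3 and -0.02 with GC slope added to the model as a covariate, and mt-Cytb overlapped between genotypes. Of 27 glycolysis genes 22 were below 0 with a median of -0.10, and -0.05 with the covariate. Pfkp, which encodes phosphofructokinase of platelet type, had separated libraries at 10.49, 10.52 and 10.52 in cKO cells and 10.71, 10.69 and 10.71 in control cells (-0.19), while Gapdh (-0.34), Hk1 and Tpi1 overlapped. The 79 cytosolic ribosomal protein genes had a median of -0.07, and 0.04 with the covariate. Rps15 was at 10.82, 10.32 and 13.00 in cKO cells and 11.35, 12.28 and 12.59 in control cells, so cKO library 3 was the highest of all 6. NF-kB pathway genes had 21 of 28 below 0 with a median of -0.14, and -0.0070 with the covariate. Of 35 splicing factor genes 31 were above 0 with a median of 0.10, and 0.03 with the covariate. Processed copies of ribosomal protein genes may have taken some of their reads. No member of these lists was called.

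**Figure D5:**
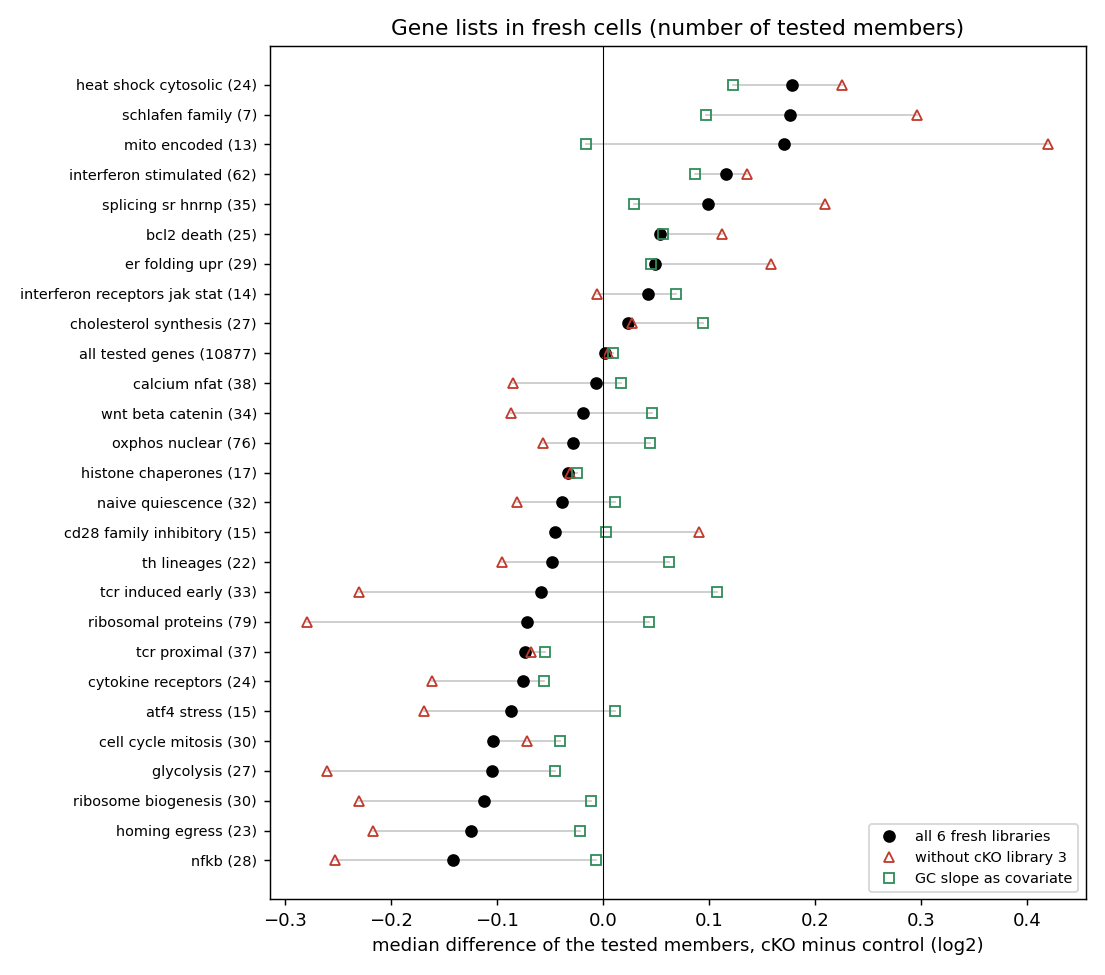
Median difference between cKO and control (log2) of the tested members of each list in fresh cells, with all 6 libraries (black), without cKO library 3 (red triangles) and with GC slope added as covariate (green squares). The interferon, heat shock and Schlafen lists stay above 0 in all 3 fits, at 0.09 to 0.30, while the mitochondrially encoded genes run from -0.02 to 0.42. The splicing, BCL2 and cell death, endoplasmic reticulum folding and cholesterol lists also stay above 0, at 0.02 to 0.21. None of the 3 fits leaves out cKO library 2, which led the heat shock list.

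Leaving out cKO library 3 changed the count of called genes to 451 higher (4.15%) and 742 lower (6.82%), 1193 in all. Leaving out any other fresh library gave 1. The 451 higher genes were higher in cKO libraries 1 and 2 by a median of 0.39, whereas cKO library 3 was -0.11 from the control mean and lay on the higher side for 78 of them (17.3%). The 742 lower genes differed by a median of -0.66 in cKO libraries 1 and 2 and 0.25 in cKO library 3, which lay on the lower side for 56 (7.55%). Control library 1 lay on the same side of the other 2 controls as the cKO pair for 440 of the 451 and 732 of the 742 genes. The median GC content was 42.9% for the higher and 55.7% for the lower genes. All 3 cKO libraries were beyond all controls for 23 higher and 18 lower genes.

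Some of the largest of these differences were held by 2 cKO libraries. Zc3h3, a gene for nuclear mRNA export, was at 5.60, 5.98 and 8.09 in cKO cells and 6.80, 7.65 and 7.68 in control cells. Agap2, a GTPase-activating protein gene, was at 7.49, 7.67 and 9.67 in cKO cells and 8.34, 9.58 and 9.19 in control cells. Rps12 was at 10.49, 10.56 and 9.44 in cKO cells and 10.06, 9.60 and 9.62 in control cells. In each, cKO library 3 lay at or beyond the far side of the controls. Others were shared by cKO library 3. Sall1 (1.96), Atg4c (1.03), Ifi44 (0.92), Ifit1 (0.71) and Rnf144a (0.61) were among the called genes of this fit. These genes also had separated libraries with all 6.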

How the data were processed

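RNA was sequenced in 18 libraries (6 groups of 3). Per the submitters' processing notes, the mm10 build, DESeq2, Partek 6.6, SAMtools 1.4, HISAT2 2.1.0 and CASAVA 1.8 were used, in roles that are not stated. The deposited table held normalized values on a log2 scale for 15137 genes, from -1.36 to 17.2, by a transformation of the authors that the labels and file do not name. The base was inferred from linear sums of 6782465 to 7419367 per library. Whole reads were not recovered and the depth is unknown, so the precision rests on the spread between libraries within groups, pooled over all 6 groups. No pair of libraries was identical (0), and 0 columns belonged to no sample.

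Groups came from the titles. limma 3.58.1 in R 4.3.3 fitted 6 group means with trended moderation (residual degrees of freedom 12, total 15.7) to the deposited log2 values, with no pseudocount, and was tested on simulated data. Coordinates, transcript length and GC content were from GENCODE M21 of GRCm38. Library numbers were not used to pair the libraries in the main fit. Correlations of deviations between same-numbered cKO and control libraries were 0.51, -0.63 and 0.60. They cannot decide whether same-numbered libraries belong together, since the first component held most of the variance. Named were Creld1 and its relative, called genes with family and neighbours, the 10 genes of smallest p (mean of at least 100) and of largest difference in each direction among those with separated libraries, the same without cKO library 3, and 4 members of smallest p per list. The members and lists were chosen with earlier results of these data known. Alternatives were other filters, pseudocounts, scalings, weights, the number block, GC terms and each library left out. Some genes that these rules name are not reported here.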

Additional observations from a re-analysis of the deposited data

Results flagged for a closer look

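For 3 of the 122 genes examined by name every cKO library lay on one side of every control library in fresh cells and on the other side in a culture. Of the 469 tested genes separated in fresh cells, this held for 44 (9.38%). These counts have unlike bases, since the 122 include genes that overlapped in fresh cells. In unstimulated culture it held for 17 of the 267 higher genes (6.37%) and 7 of the 202 lower genes (3.47%). In stimulated culture it held for 10 of the 267 (3.75%) and 11 of the 202 (5.45%). Atg4c was at log2 4.02, 3.56 and 3.34 in cKO and 2.76, 2.97 and 2.56 in control fresh cells, at 3.07, 2.65 and 2.84 in cKO and 3.25, 3.29 and 3.53 in control unstimulated cells, and at 2.90, 2.94 and 2.81 in cKO and 3.33, 3.41 and 3.23 in control stimulated cells. The genotype difference in fresh cells exceeded that in unstimulated culture by 1.38 ± 0.24 (SE, limma adjusted p = 0.299) and that in stimulated culture by 1.31 ± 0.24 (limma adjusted p = 0.526). Dnajb1 was at 9.75, 9.79 and 10.04 in cKO and 9.69, 9.71 and 9.65 in control fresh cells, and at 9.04, 9.06 and 8.98 in cKO and 9.11, 9.11 and 9.17 in control unstimulated cells, a difference of 0.28 ± 0.10 between the conditions (limma adjusted p = 0.843). Ftl1-ps1 was at 4.15, 4.88 and 4.27 in cKO and 4.99, 5.51 and 5.11 in control fresh cells, and at 5.47, 5.47 and 5.22 in cKO and 4.98, 5.14 and 4.97 in control stimulated cells, a difference of -1.13 ± 0.42 between the conditions (limma adjusted p = 0.666). None passed the threshold of the interaction.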

How the results depend on the processing

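The count of called genes was 1, Sall1, under 11 of the settings that kept all 6 fresh libraries, and 0 in 2. With a minimum of 50 Sall1 was not tested and 0 were called (368 at an unadjusted p below 0.05), and with only the 6 fresh libraries 0 were called (90 unadjusted), Sall1 keeping 2.11 with a limma adjusted p of 0.398. Leaving out 1 fresh library at a time gave 1 to 1193 called genes and 1 to 145 called list members, with 1193 and 145 without cKO library 3. It gave 0 to 0 genes for both differences between conditions. The replicate block gave 1 called gene and a Creld1 difference of -0.49. With the GC slope and the block, 1 gene, 2510039O18Rik (0.64), differed between fresh cells and unstimulated culture. Creld1 was between -0.64 and -0.29 when libraries were left out, -0.84 with library weights and -0.28 with the GC slope, never called. Sall1 was between 1.64 (pseudocount 5) and 2.37 (library weights).

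Of 2301 values of 122 named genes under other settings, 57 became called, all without cKO library 3, and 12 turned round. Those were Creld2 with the GC spline (0.013), Sall2 with the GC slope (0.016), the GC spline (0.0074) and without cKO library 2 (0.022), mt-Cytb with quantile normalization (-0.0035), Rpusd3 with library weights (-0.086), without cKO library 3 (-0.049) and without control library 1 (-0.068), Emc3 with the GC slope (-0.0098), the slope and block (-0.017) and without cKO library 1 (-0.037), and Cyld with the GC slope (-0.014). With libraries left out Sall2 ran from -0.20 to 0.022, Rpusd3 from -0.068 to 0.35 and Emc3 from -0.037 to 0.17. The cause was not tested. DESeq2 was not run, since whole reads were not recovered. Unknown depth limits genes at low levels, Sall1 and Creld1 included.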

Other observations

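Other gene groups held no called member. Of 30 tested cell cycle genes 20 were below 0, with a median of -0.10, although the replication genes Tyms (0.30) and Pcna (0.27) were above 0 and Cdc6 (-0.38) below. Among 22 genes of T helper lineages, Stat4 (0.24), the IL-12 signal transducer, overlapped, and Eomes (0.28) had separated libraries. Among 23 homing and egress genes 15 were below 0, with a median of -0.12, and Ccr7 (-0.29) and Cxcr4 (-0.25) were led by cKO libraries 1 and 2. Of 25 genes of the BCL2 family and cell death 17 were above 0, with a median of 0.05 and Fas at 0.21.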
